A study of Mus musculus with 360 samples.

Results

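The genes described here encode plasma proteins, the coagulation and fibrinolysis factors, the complement proteins and their inhibitors. They were chosen by gene symbol, as the probes named for apolipoproteins, serpins, complement components, numbered coagulation factors and the fibrinogen gamma chain. Probes named for inter-alpha-trypsin inhibitors, kininogen, plasminogen, vitronectin and orosomucoids were taken as well. Some genes that fit these names were left out, and the choice was made with earlier results of these data known. The rule took in 35 probes of 32 genes, of 3154 probes with 2759 symbols on the panel, and 34 of the 35 passed the filter on low counts in liver. The exception was Serpinb9g, a serpin of clade b, with counts in 2 of 360 libraries and at most 13 counts. By role the others were 12 probes of coagulation and fibrinolysis, 9 of complement, 8 of secreted inhibitors, 3 of apolipoproteins and 2 of carrier proteins.

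RNA came from heart, kidney, left liver lobe, lung and ovary of female B6D2F1/Crl (BDF-1) mice, 9 weeks old, on study day 5, and was counted with the Mouse S1500+ TempO-Seq panel, in which a pair of detector oligonucleotides is ligated on each target RNA. In 1 series the mice were exposed to 1,2-dichlorobenzene (1,2-DCB) at 0, 1, 10, 30, 100 or 250 ppm, and in the other to 1,4-dichlorobenzene (1,4-DCB) at 0, 1, 10, 50, 150 or 400 ppm. Both are benzene rings with a pair of chlorines, adjacent in 1,2-DCB and opposite each other in 1,4-DCB. Each series had its own 0 ppm controls of the same sex, strain and age, and each library is 1 animal. In liver the groups held 9, 2, 4, 5, 5 and 6 animals in order of 1,2-DCB concentration, and 7, 5, 4, 5, 4 and 5 in order of 1,4-DCB concentration.

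Hepatocytes make most plasma proteins and secrete them into the blood. Fibrinogen is cut by thrombin to form a clot, plasmin dissolves it, and serpins stop these proteases by trapping them. Complement is a cascade in which C1q, C1r and C1s or other triggers lead to cleavage of C3 and to a membrane pore that contains C9. In the liver many of these genes belong to the acute phase response, in which interleukin 6 and interleukin 1 change hepatocyte transcription. C1q differs from most of the others because macrophages are its main source.

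In the order of genes along the chromosomes of the RefSeq table, Serpina3k, Serpina3m and Serpina3n lay side by side on chromosome 12 with 0 protein-coding genes between neighbours. C1qb, C1qc and C1qa did so on chromosome 4, and C1ra and C1s1 on chromosome 6. Serpina10 and Serpina9 were separated by 9 protein-coding genes, and Serpina9 and Serpina3k by 9 more. Probes of the Serpina3 family, C1ra, C1s1 and Orm3 have close paralogs in the mouse genome, and their counts are uncertain as far as reads of a paralog could be taken up.

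Promoter windows of 4 members are printed as examples, and no result below rests on them. C9, C3 and Fgg fell in liver at the highest concentration of both isomers, and Orm3 rose with 1,4-DCB. Each window is 300 bases from RefSeq, build GRCm38.p6, with 250 bases before the start site and 50 after it, printed 5′ to 3′ on the gene's strand. Capitals mark matches to the C/EBP letters TTNNGCAA or the TATA box letters TATAAA on either strand. The windows are chr15:6445096-6445395 on the plus strand for C9, chr17:57228087-57228386 on the minus strand for C3, chr4:63355908-63356207 on the plus strand for Orm3, and chr3:83007474-83007773 on the plus strand for Fgg.
C9: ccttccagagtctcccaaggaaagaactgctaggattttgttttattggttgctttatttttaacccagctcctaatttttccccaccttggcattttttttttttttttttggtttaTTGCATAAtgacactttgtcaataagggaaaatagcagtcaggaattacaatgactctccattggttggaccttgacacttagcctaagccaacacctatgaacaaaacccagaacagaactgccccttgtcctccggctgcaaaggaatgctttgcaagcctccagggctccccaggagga
C3: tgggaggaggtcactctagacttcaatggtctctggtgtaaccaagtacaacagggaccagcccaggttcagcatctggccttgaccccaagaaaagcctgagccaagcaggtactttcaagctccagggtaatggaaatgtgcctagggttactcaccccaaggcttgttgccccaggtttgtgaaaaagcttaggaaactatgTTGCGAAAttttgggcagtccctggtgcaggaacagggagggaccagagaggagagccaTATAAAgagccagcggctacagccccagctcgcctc
Orm3: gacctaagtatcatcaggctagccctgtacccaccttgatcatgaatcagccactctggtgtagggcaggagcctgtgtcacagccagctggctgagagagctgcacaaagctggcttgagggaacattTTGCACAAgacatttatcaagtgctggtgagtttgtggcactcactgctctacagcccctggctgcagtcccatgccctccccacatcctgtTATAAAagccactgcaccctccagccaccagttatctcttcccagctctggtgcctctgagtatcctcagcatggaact
Fgg: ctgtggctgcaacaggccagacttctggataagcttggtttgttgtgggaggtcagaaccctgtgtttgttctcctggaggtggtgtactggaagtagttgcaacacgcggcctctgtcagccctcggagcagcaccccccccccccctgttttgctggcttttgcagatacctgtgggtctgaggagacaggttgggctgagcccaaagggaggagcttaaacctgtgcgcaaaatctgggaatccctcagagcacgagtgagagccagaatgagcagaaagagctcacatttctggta

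The C/EBP match began 45 bases before the start site of C3 and 121 before that of Orm3, and in C9 it lay near the middle of the window. Orm3 also held TATAAA 29 bases before its start, and the window of Fgg held neither. The sequence table had 26 windows for 22 of the 32 genes. The C/EBP letters stood in 6 of the 26 windows (23.1%) and in 10.8% of 32851 mouse promoter windows of the same length, and the genes were C1ra, C1s1, C3, C9, F11 and Orm3. The TATA box letters stood in 26.9% of the members' windows and 13.6% of all windows. The STAT letters TTCNNNGAA stood in 7.69% and 8.30%, the NRF2 letters TGACNNNGC in 7.69% and 12.4%, the heat shock letters GAANNTTC in 7.69% and 7.86%, and the E-box letters CACGTG in 7.69% and 7.15%. The E-box windows of the members were 2 overlapping windows of 1 gene, Apoa5, and both of its windows also count among the 7 with TATA letters, of 6 genes. The HNF4 letters CAAAGTCCA, the NF-kB letters GGGACTTTC and the HNF1 letters GTTAATNAT stood in 0 member windows and in 0.475%, 0.353% and 0.801% of all windows. Both strands were searched. C/EBP and HNF4 are factors of hepatocyte transcription, and a match is a string of letters, not a bound site. Members that fell in liver stood among the genes with C/EBP letters and among those without, such as F5, Itih1 and Vtn. A link of the letters to the changes was not tested.

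Liver libraries held 14.1 to 40.3 M counts, and libraries of the other tissues 4.34 to 46.5 M. In unexposed mice the members took a median of 7.96% of liver counts (7.12% to 10.3%), 0.685% in ovary, 0.210% in lung, 0.105% in kidney and 0.0829% in heart. The sum of 17 hepatocyte marker probes was 158110 to 240970 CPM in liver controls, 40408 to 87153 CPM in kidney controls and 17898 to 35516 CPM in lung controls. The 3 heart muscle probes summed to 212490 to 323130 CPM in heart controls. Kidney rested on 1 marker probe, and the panel held 0 probes of the lung list. Levels are in CPM, the count as a part of the scaled library total unless stated. Changes are log2 differences from the controls of the same series in edgeR's quasi-likelihood test, two-sided. A change was called at an adjusted p under 0.05 over all probes of the contrast. Probes differ in how well they capture their target, so levels were compared within a probe, or as a sum of the same probes. Because tissue pieces were lysed whole, fewer cells of a type and less RNA per cell cannot be told apart.

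At 250 ppm 1,2-DCB the liver RNA of plasma protein genes fell broadly. Of 34 probes, 23 were called lower and 1 higher, while 24.6% of all 2601 probes were called lower and 49.8% were called in either direction. The median log2 change was -0.64 over the members and -0.02 over all probes. The fall took in fibrinogen and factor V, the complement regulator Serping1, the late component C9, the carriers of lipid Apoa5 and Apoe, and the liver serpin Serpina3k. With 400 ppm 1,4-DCB, 24 were called lower and 1 higher, against 13.6% of all probes called lower and 31.6% in either direction, with a median of -0.41 over members and -0.03 over all probes. The concentrations differ, so the values of the isomers stand side by side without a test.

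The members' share of all liver counts was 7.69% to 10.3% in the 9 controls of 1,2-DCB (median 8.45%) and 5.14% to 5.78% in the 6 animals at 250 ppm (median 5.40%). In the other series it was 7.12% to 9.53% in 7 controls (median 7.77%) and 4.83% to 5.28% at 400 ppm (median 5.03%). In neither series did the groups overlap. The share sums probes that differ in capture, and it leans on Fgg and Serpina3k. Their control means in the 1,2-DCB series, 23941 and 19735 CPM, were the highest of the members, so the share does not speak for each member. At 100 ppm 1,2-DCB and 150 ppm 1,4-DCB the medians were 7.34% and 6.94%. When the 11 liver libraries that the labels mark as not used were brought back, 13 members were called at 250 ppm and 9 at 400 ppm, beside 36.9% and 20.4% of all probes.

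**Figure D1:**
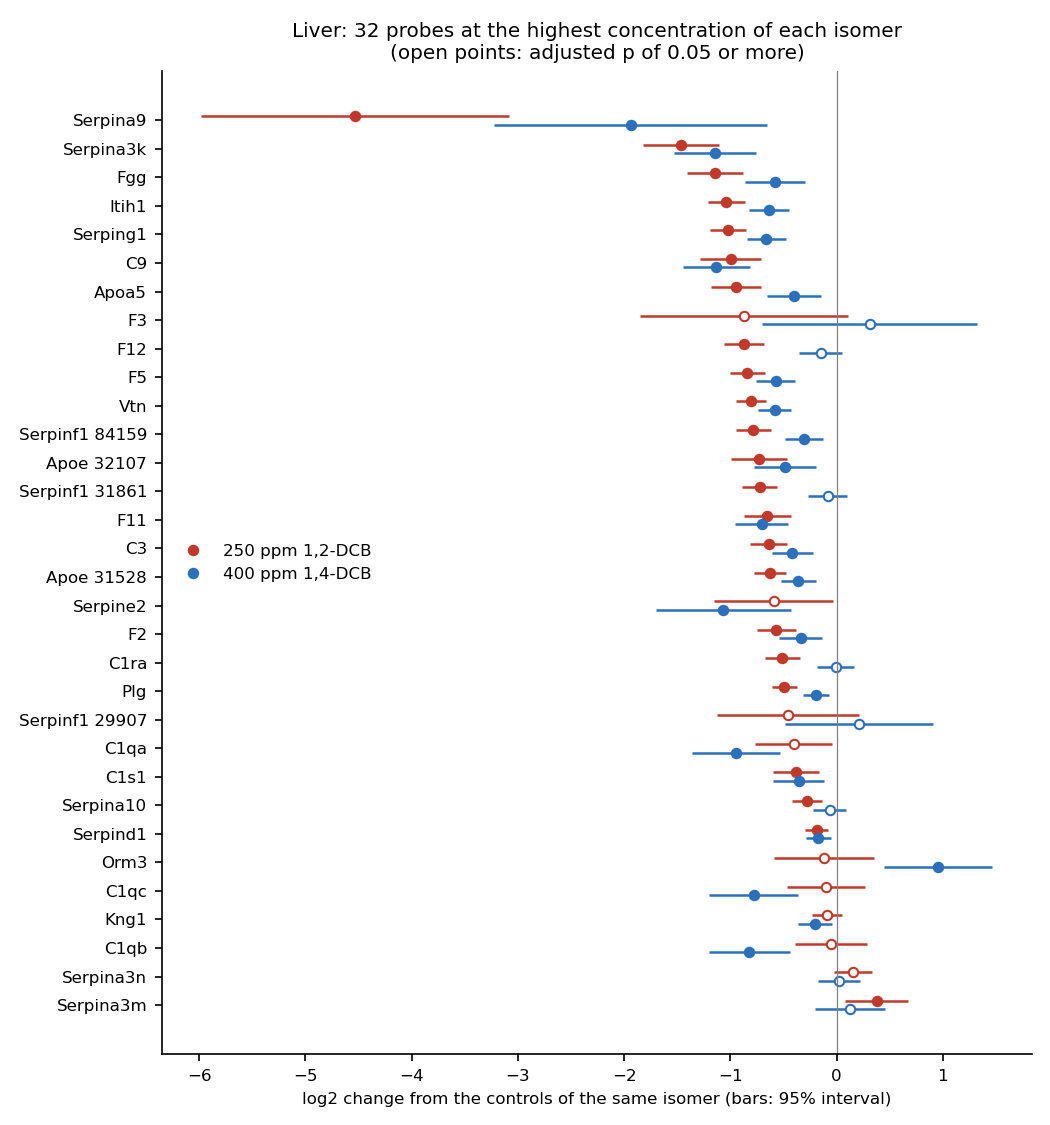
Log2 change from controls (horizontal axis) of 32 of the 34 probes in liver at 250 ppm 1,2-DCB (red) and 400 ppm 1,4-DCB (blue), with 95% intervals as bars and filled points for probes called at an adjusted p under 0.05. Most points lie left of 0, with Orm3 to the right at 400 ppm only as a filled point and Serpina3m to the right at 250 ppm.

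Coagulation and fibrinolysis came first by number, with 8 of 12 probes called lower at each highest concentration, 0 higher, and medians of -0.58 at 250 ppm 1,2-DCB and -0.27 at 400 ppm 1,4-DCB. Fgg, the fibrinogen gamma chain, measured 16083 to 36775 CPM in 9 controls (median 23771) and 8743 to 12264 CPM in 6 animals at 250 ppm (median 11267). All 6 animals lay below every control. The log2 change was -1.15 (95% interval -1.41 to -0.88, edgeR adjusted p = 1.4e-10). With 1,4-DCB at 400 ppm it was -0.58 (adjusted p = 0.0013). The deposited values of Fgg are whole multiples of 4, in a table that the authors named as attenuation adjusted.

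F5, the cofactor that speeds thrombin formation, measured 466 to 607 CPM in controls (median 493) and 251 to 311 CPM at 250 ppm (median 296). The groups did not overlap, and the log2 change was -0.84 (-1.01 to -0.67, edgeR adjusted p = 1.9e-12). The 5 animals at 400 ppm 1,4-DCB had 303 to 329 CPM (median 325) against 373 to 527 CPM in 7 controls, again without overlap, at a log2 change of -0.58 (adjusted p = 1.4e-06). F11, a protease of the contact pathway, had 76.1 to 119.3 CPM in those controls (median 102) and 54.3 to 69.4 CPM at 400 ppm (median 56.7). Its log2 change was -0.71 (-0.95 to -0.46, adjusted p = 8.8e-06) at 400 ppm and -0.65 at 250 ppm. F12, which starts the contact pathway, measured 22.7 to 38.01 CPM in controls and 14.04 to 18.2 CPM at 250 ppm, with no overlap and a log2 change of -0.87 (-1.06 to -0.69, adjusted p = 1.8e-11). F12 at 400 ppm 1,4-DCB lay at 22.9 to 30.6 CPM against 25.7 to 32.6 CPM and was not called (log2 change -0.15, adjusted p = 0.28).

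F2, prothrombin, changed by -0.57 at 250 ppm, where its animals held 190 to 258 CPM against 300 to 378 CPM in controls, and by -0.34 at 400 ppm. Plg, plasminogen, changed by -0.49 and -0.19, and both were called. Serpind1, heparin cofactor II, which inhibits thrombin, changed by -0.19 and -0.17, called in both. Serpina10, the protein Z dependent inhibitor, was called at 250 ppm (-0.28) and not at 400 ppm (-0.07). Kng1, kininogen, gave -0.09 (adjusted p = 0.31) and -0.20 (adjusted p = 0.048).

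F3 and Serpine2, of the same role, were higher outside the liver in unexposed mice. F3, tissue factor, was not called in liver at -0.88 and 0.31. Serpine2, protease nexin 1, was called lower at 400 ppm (-1.07, adjusted p = 0.0079) and not at 250 ppm (-0.59, adjusted p = 0.081).

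Of 9 complement probes, 6 were called lower at 250 ppm 1,2-DCB and 8 at 400 ppm 1,4-DCB, with medians of -0.51 and -0.75 and 0 called higher. Serping1, the C1 inhibitor, which blocks C1r, C1s and kallikrein, had the smallest p of the members at 250 ppm. It measured 519 to 754 CPM in controls (median 594) and 254 to 347 CPM in the exposed animals (median 298), without overlap. The log2 change was -1.02 (-1.19 to -0.86, edgeR adjusted p = 2.7e-15). The 5 animals at 400 ppm of the other isomer held 333, 358, 364, 398 and 420 CPM against 507 to 729 CPM in controls (median 582), a log2 change of -0.66 (-0.85 to -0.48, adjusted p = 6.7e-08). Again no exposed animal reached a control.

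C9, which forms the pore and whose promoter is printed above, fell with both isomers. Its 5 animals at 400 ppm held 591, 698, 710, 859 and 999 CPM against 1403 to 2062 CPM in 7 controls (median 1582). The groups did not overlap, and the log2 change was -1.13 (-1.45 to -0.82, edgeR adjusted p = 7.7e-08). At 250 ppm the range was 432 to 1358 CPM (median 807) against 1207 to 2090 CPM (median 1610), which overlapped, with a log2 change of -0.998 (adjusted p = 4.3e-08). C3, the central component, had 2782 to 4065 CPM at 250 ppm against 5039 to 6899 CPM, without overlap, at -0.64, and changed by -0.42 at 400 ppm.

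C1s1 was called at -0.39 and -0.36. Its neighbour C1ra was called at 250 ppm alone, at -0.51, with 80.7 to 120.4 CPM against 127.8 to 183 CPM. At 400 ppm its animals held 151.6 to 199 CPM against 148.8 to 190 CPM, a log2 change of -0.01 (adjusted p = 0.96).

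The 3 C1q chains showed the reverse pattern, called at 400 ppm 1,4-DCB and not at 250 ppm 1,2-DCB. C1qa measured 61.6 to 102 CPM in 7 controls (median 78.4) and 36.8 to 45.1 CPM in 5 animals at 400 ppm (median 41.7). C1qb had 86.4 to 131.8 CPM (median 102) and 53.5 to 63.8 CPM (median 61.2), and C1qc 44.4 to 75.1 CPM (median 59.2) and 30.5 to 36.4 CPM (median 33.5). None of the 3 overlapped between the groups, and the log2 changes were -0.95, -0.82 and -0.78 (edgeR adjusted p = 0.00029, 0.00071 and 0.0032). At 250 ppm 1,2-DCB the log2 changes were -0.40, -0.05 and -0.10 (adjusted p = 0.066, 0.83 and 0.69). Of 5 macrophage probes, Ctss (-0.81), Cd74 (-0.80) and Lyz2 (-0.92) were called lower at 400 ppm, and Cd74 lower (-2.08) and Cd68 higher (1.68) at 250 ppm. Summed, those 5 probes gave 807 to 1430 CPM in the 1,4-DCB controls and 556 to 617 CPM at 400 ppm, and the part of macrophage number in the C1q change was not tested.

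At 10 and 30 ppm 1,2-DCB, 1 and 4 of 34 members were called, a share under that of all probes at 10 ppm and near it at 30 ppm. At 10 ppm, C1qb was called (66.2, 95.1, 95.6 and 97.6 CPM against 97.9 to 342 CPM, log2 change -0.65, adjusted p = 0.046) beside 5.34% of all probes. At 30 ppm, C1qa (-0.87), C1qb (-0.74), C1qc (-0.80) and Fgg (-0.52) were called beside 11.7% of all probes. C1qb and C1qc at 30 ppm, at 76.0 to 89.03 CPM and 36.5 to 46.6 CPM, did not overlap their controls. Control animal 4 of that series stood apart, with 288 CPM of C1qa, 342 of C1qb and 191 of C1qc, where the next control had 121, 130 and 79.0 CPM.

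Without control animal 4, C1qb at 10 ppm was no longer called. At 30 ppm the 4 probes stayed called at -0.56, -0.44, -0.50 and -0.41 in the order C1qa, C1qb, C1qc and Fgg. At 100 ppm, C1qa stayed at -0.48, and C1qb and C1qc were no longer called. The macrophage genes Ctss and Cd74 were called lower at 10 ppm (-1.05 and -0.88), 30 ppm (-1.08 and -1.19) and 100 ppm (-0.67 and -0.79), and Csf1r was called at none of the 10 exposed groups of liver.

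**Figure D2:**
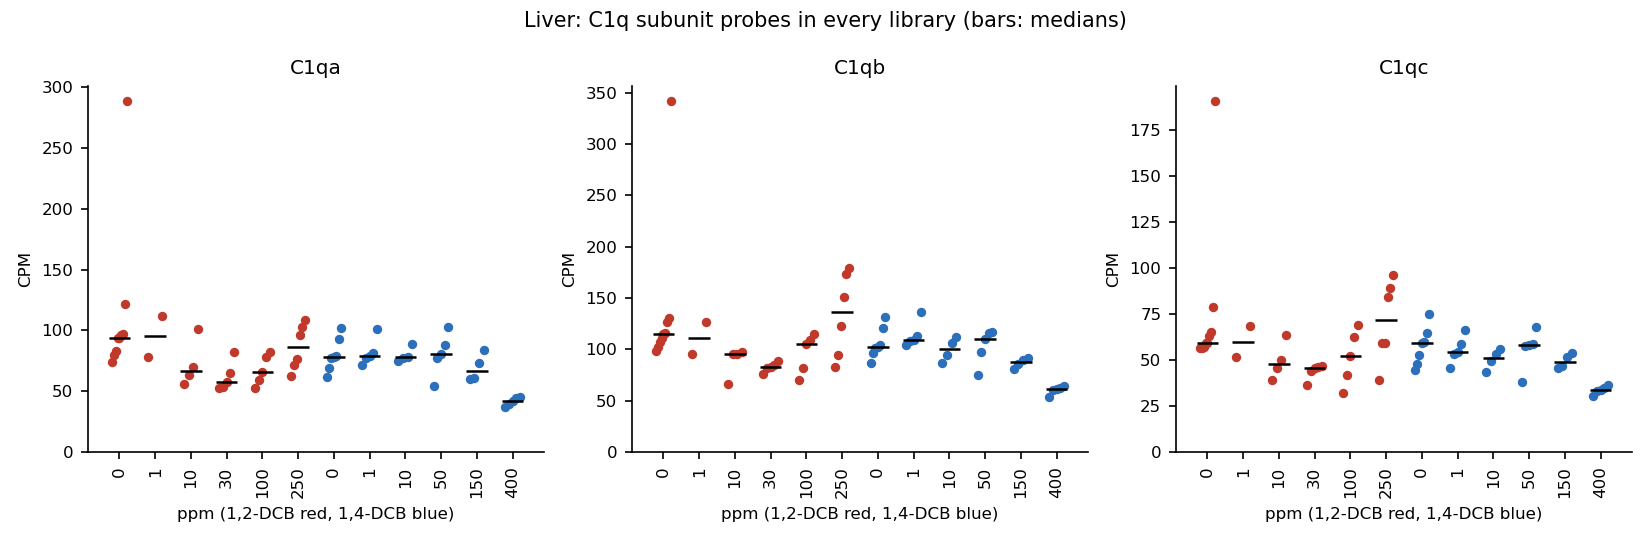
CPM (vertical axis, linear, from 0) of C1qa, C1qb and C1qc in every liver library, by concentration in ppm, with 1,2-DCB in red, 1,4-DCB in blue and bars at the medians. The 5 libraries at 400 ppm 1,4-DCB sit below all controls, and 1 control of the 1,2-DCB series stands far above the others.

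Among the 8 secreted inhibitor probes, 5 were called lower and 1 higher at 250 ppm, and 4 lower and 0 higher at 400 ppm, with medians of -0.75 and -0.20. Itih1, a heavy chain that binds hyaluronan, measured 681 to 912 CPM in controls (median 771) and 298 to 416 CPM at 250 ppm (median 400). The groups did not overlap, and the log2 change was -1.04 (-1.21 to -0.87, edgeR adjusted p = 4.2e-15). At 400 ppm 1,4-DCB it held 512 to 680 CPM (median 557) against 676 to 1026 CPM (median 878), with 4 of 5 animals below all controls and a log2 change of -0.63 (adjusted p = 3.7e-07).

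Serpina3k, an abundant liver serpin, had 12322 to 31723 CPM in the 1,2-DCB controls (median 19217) and 4790 to 10320 CPM at 250 ppm (median 6765), a log2 change of -1.46. At 400 ppm 1,4-DCB the animals held 6160, 7710, 8480, 9293 and 12362 CPM against 13556 to 24010 CPM (median 19003). Neither pair of groups overlapped, and the log2 change at 400 ppm was -1.14 (-1.53 to -0.75, adjusted p = 5.2e-06). Its neighbours on chromosome 12 differed from it. Serpina3m was called higher at 250 ppm (164 to 315 CPM against 88.6 to 242 CPM, log2 change 0.38, adjusted p = 0.033) with overlapping groups, and not called at 400 ppm (0.12). Serpina3n gave 0.15 and 0.02 and was called in neither.

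Serpinf1, pigment epithelium derived factor, has 3 probes, named by the identifiers that the panel gives them. Serpinf1_84159 measured 172 to 233 CPM in controls (median 202) and 98.6 to 140 CPM at 250 ppm (median 114.02), without overlap, at a log2 change of -0.78 (-0.95 to -0.62, adjusted p = 1.3e-11). Serpinf1_31861 changed by -0.72 there, called, and Serpinf1_29907, under 2 CPM in each liver library used, by -0.46, not called. With 400 ppm 1,4-DCB only Serpinf1_84159 was called, at -0.31. Serpina9 had 2.42 to 17.2 CPM in controls and 0.0445 to 0.747 CPM at 250 ppm, where it rested on 1 to 15 counts, and its fitted log2 change was -4.53. It was also called at 400 ppm (-1.94).

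The 3 apolipoprotein probes were called lower at both highest concentrations, with medians of -0.73 and -0.40. Apoa5, which promotes triglyceride clearance, had 127.7 to 239 CPM at 250 ppm against 290 to 404 CPM in controls, without overlap, at -0.95, and changed by -0.40 at 400 ppm. Apoe, a ligand of lipoprotein receptors, had 3475 to 4844 CPM of Apoe_31528 at 250 ppm against 5259 to 6978 CPM, without overlap, at -0.63. Apoe_32107 gave -0.73. At 400 ppm the probes gave -0.36 and -0.49.

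Of the carriers, Vtn and Orm3 moved apart. Vtn, vitronectin, which binds heparin and the complement pore, measured 4781 to 6098 CPM in controls (median 5367) and 2472 to 3514 CPM at 250 ppm (median 3174), a log2 change of -0.81 (-0.95 to -0.66, edgeR adjusted p = 3.6e-14). Vtn had the smallest p of the members at 400 ppm 1,4-DCB, with 3302, 3382, 3425, 3439 and 3821 CPM against 4865 to 6039 CPM (median 5071). The log2 change was -0.58 (-0.74 to -0.43, adjusted p = 3.2e-08), and neither pair of groups overlapped. Orm3, an orosomucoid of the acute phase, held 14.3, 19.3, 20.7, 21.5 and 23.9 CPM at 400 ppm against 5.71 to 15.2 CPM in controls (median 10.4), a log2 change of 0.96 (adjusted p = 0.0030). At 150 ppm it had 9.98, 18.2, 20.8 and 32.2 CPM, a log2 change of 0.98 (0.44 to 1.52, adjusted p = 0.021), and was the only member called there, beside 5.96% of all probes. It was no longer called without control 4 (adjusted p = 0.062), animal 402 (0.054) or animal 405 (0.28), or with all libraries (0.0501). With 250 ppm 1,2-DCB its log2 change was -0.12 (adjusted p = 0.72).

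Of the probes called lower, 19 were called lower at both highest concentrations, which is 82.6% of the 23 at 250 ppm and 79.2% of the 24 at 400 ppm. Of all probes 9.34% were called lower at both, which is 37.97% of those called lower at 250 ppm and 68.5% of those at 400 ppm. C1ra, F12, Serpina10 and Serpinf1_31861 were called lower at 250 ppm 1,2-DCB and not at 400 ppm 1,4-DCB. The C1q chains, Kng1 and Serpine2 were called lower at 400 ppm and not at 250 ppm, and these differences between the isomers were not tested because the concentrations differ. All exposed animals lay below all controls for 19 of the 23 at 250 ppm and for 13 of the 24 at 400 ppm, where 8.84% and 6.73% of all probes were called lower with the same separation. Those are 35.9% and 49.3% of all probes called lower.

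Below the highest concentrations fewer members were called. At 100 ppm 1,2-DCB, 9 were called lower, where 6.73% of all probes were called lower and 18.8% in either direction. Serping1 had 465 to 516 CPM (median 485), below all 9 controls in 5 of 5 animals, at -0.34 (edgeR adjusted p = 0.0044). Itih1 did so as well, with 530 to 657 CPM, at -0.33. Vtn (4014 to 4927 CPM) changed by -0.27, Fgg (13890 to 20234 CPM) by -0.48 and C1qa (52.5 to 82.0 CPM) by -0.76, with some animals inside the control range. The others were C1qb (-0.53), C1qc (-0.57), Serpina3k (-0.61) and F5 (-0.25). Serpina3n was called higher at 0.29. Without animal 401 of that group 4 members were called, and without animal 403 there were 6.

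At 1 ppm 1,2-DCB 0 members and 0% of all probes were called by edgeR, with 0 members at an unadjusted p under 0.05 and 0 called by DESeq2. With 1,4-DCB 0 members were called at 1, 10 and 50 ppm, where edgeR called 0%, 0% and 0.769% of all probes. At an unadjusted p under 0.05 there were 4, 0 and 2 members, and DESeq2 called 0 at each.

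**Figure D3:**
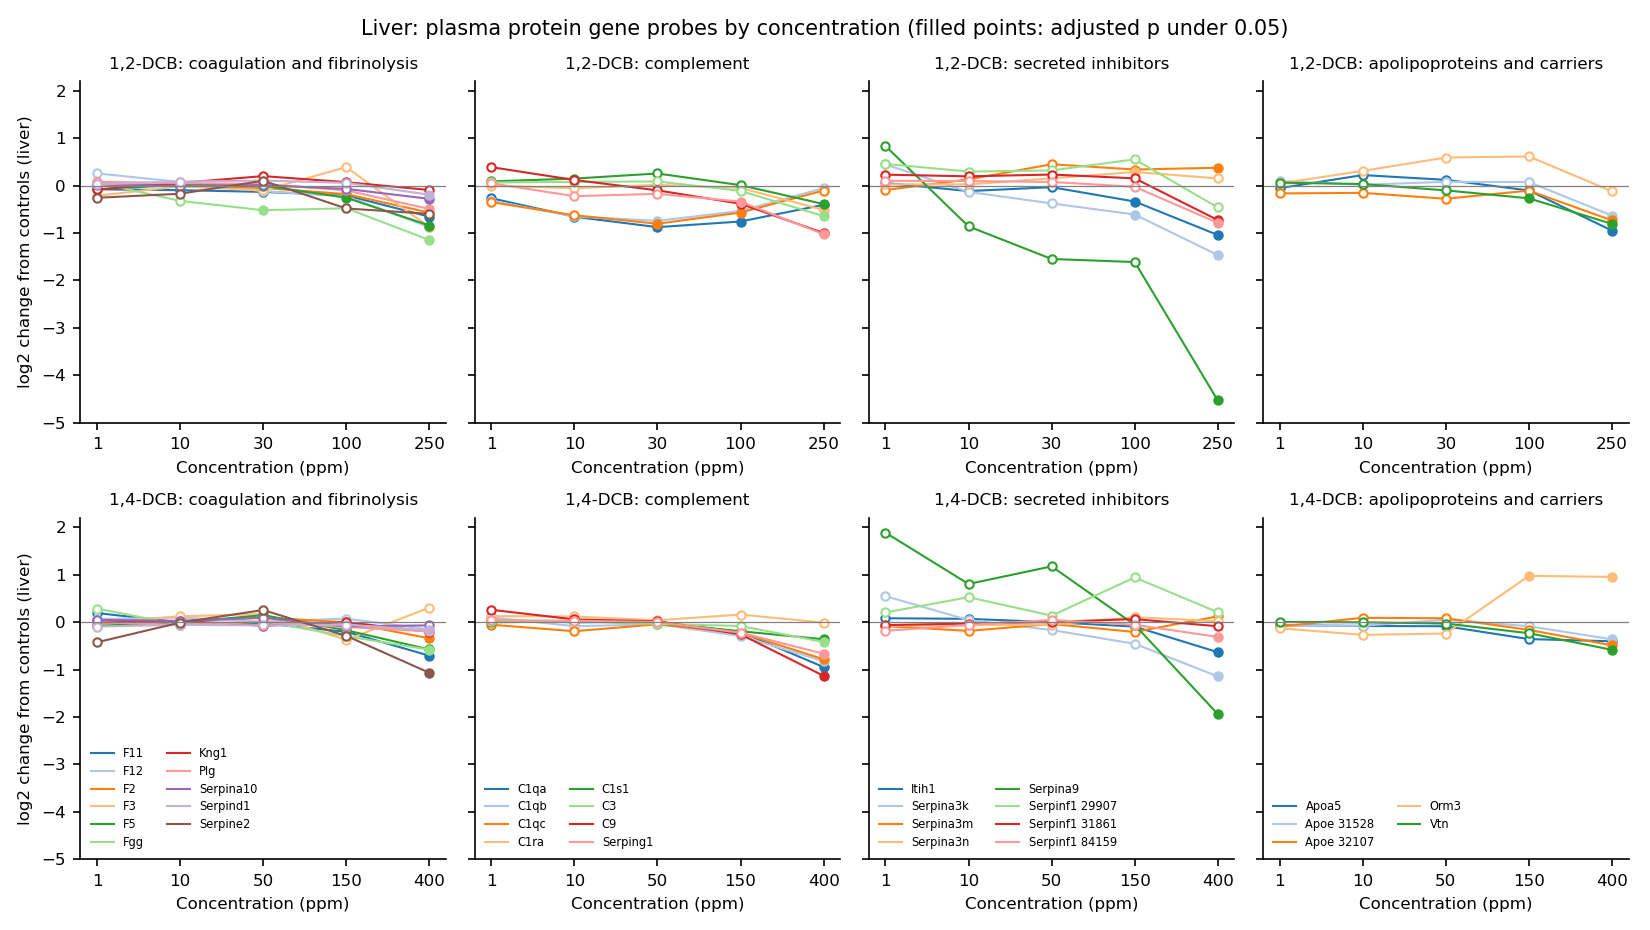
Log2 change from controls (vertical axis) of 32 of the 34 liver probes against concentration in ppm (evenly spaced categories), by role, with 1,2-DCB in the upper row and 1,4-DCB in the lower row and filled points for an adjusted p under 0.05. Filled points gather at 250 and 400 ppm. In the complement panel of 1,2-DCB the C1q chains are first filled at 10 or 30 ppm and are not filled at 250 ppm.

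The isomers were compared at 1 and 10 ppm, the concentrations they share, as the difference of their changes from control. Over 10 contrasts in 5 tissues, 0 of 288 member tests were called by edgeR, beside 0.321% of all tests. At an unadjusted p under 0.05 there were 36 (12.5%, against 6.95% of all tests), and DESeq2 called 1. In liver at 10 ppm the difference, 1,2-DCB minus 1,4-DCB, was -0.65 for C1qa (-1.25 to -0.06, adjusted p = 0.31), -0.26 for Fgg (-0.68 to 0.15), -0.25 for Serping1 (-0.52 to 0.02), -0.18 for Serpina3k (-0.73 to 0.38), 0.04 for Vtn (-0.19 to 0.27) and 0.06 for C9 (-0.39 to 0.51). The intervals leave room for differences of those sizes, so the isomers were not shown to act alike. The smallest adjusted p among the members outside liver was that of C1qc in heart at 10 ppm, at -0.86 (-1.34 to -0.38, adjusted p = 0.065).

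The controls of the isomers did not differ in any of the 34 liver probes by edgeR, beside 0.577% of all probes. An unadjusted p under 0.05 was held by 7 members, beside 325 of all 2601 probes, and DESeq2 called 0 members. In the other tissues 8 of 110 member tests were called between the controls, beside 2.32% of all tests. They were C1qa and C1qb in heart and ovary, C1qc, Serpina9 and Orm3 in ovary and Serpina3n in kidney. Within the liver controls the coefficient of variation of a member had a median of 14.9% in the 1,2-DCB series, where Serpind1 was lowest at 7.79%, and of 13.2% in the 1,4-DCB series, where it ranged from 5.42% (Plg) to 66.3% (Serpina9).

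Other genes of these pathways, from a list of 73, were also called lower more often than higher in the liver. Of 34 probes tested, 16 were called lower and 7 higher at 250 ppm 1,2-DCB (median -0.41), and 14 lower and 0 higher at 400 ppm 1,4-DCB (median -0.43). The other fibrinogen chains fell, with Fgb at -0.90 and -0.70 and Fga at -1.04 and -0.46 on its called probe. Klkb1, plasma kallikrein, changed by -0.98 and -0.61, C8b of the pore by -1.01 and -0.59, and Mbl1, a lectin that starts complement, by -1.23 and -0.59. Lcat and Lipc, which remodel lipoproteins, changed by -0.90 and -1.46 at 250 ppm and by -0.30 and -0.65 at 400 ppm.

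Acute phase genes outside the members did not follow 1 direction. Saa1 changed by -3.06 and -2.14 and Crp by -0.93 and -0.23, all called lower, whereas at 250 ppm Lcn2 (1.58) and Hp (0.41) were called higher. F13a1, which crosslinks fibrin, rose at 250 ppm by 3.01, Procr, the protein C receptor, by 1.65, and Plau, urokinase, by 1.54.

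Regulators of plasma protein genes were called lower more often than higher. Of 23 probes from a list of 32, 10 were lower and 1 higher at 250 ppm, and 8 lower and 0 higher at 400 ppm. Creb3l3, a membrane-bound transcription factor of hepatocytes, changed by -0.68 and -0.50, Ppara by -0.81 and -0.45, Foxa1 by -0.52 and -0.50, and Stat3, which carries interleukin 6 signals, by -0.30 and -0.35. Il1b changed by -1.89 and -1.48. Hnf4a was called at 250 ppm (-0.40) and Il6 at 400 ppm (-2.29). Nfe2l2 was called higher at 250 ppm (0.36).

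Markers of cell types in the liver moved too, and their part in the members' fall was not tested. Of 17 hepatocyte probes, 11 were called lower and 2 higher at 250 ppm (median -0.58), and 5 lower and 4 higher at 400 ppm (median -0.06). The summed level of those probes was 157630 to 183680 CPM at 250 ppm against 158110 to 217290 CPM in controls, and 268560 to 334040 CPM at 400 ppm against 198490 to 240970 CPM. Of 6 fibroblast and stellate cell probes, 5 were called higher at 250 ppm, summing to 73.8 to 364 CPM against 60.4 to 95.1 CPM, and at 400 ppm 0 were called higher and 2 lower (median -0.26). Of 3 neutrophil probes tested at 400 ppm, S100a8 was called higher (4.80), and S100a9 (-0.21, adjusted p = 0.89) and Camp (-1.80, adjusted p = 0.36) were not called. The sum of the neutrophil list was 206 to 659 CPM there against 4.11 to 36.5 CPM. All 5 red cell probes tested were called lower at 250 ppm (237 to 3504 CPM against 5293 to 19646 CPM) and 0 at 400 ppm.

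In unexposed mice most members were lower in every other tissue than in liver. Of 33 probes tested across tissues, 30 were lower than in liver in each of kidney, lung, heart and ovary, where 36.1%, 40.1%, 38% and 43.9% of all 2871 probes were lower. The fitted median differences were -7.43, -6.31, -6.41 and -6.32 on the log2 scale, against 0.08, 0.16, 0.14 and 0.03 over all probes. Probes with counts in liver alone could pass the filter through liver, so their lower values elsewhere were fixed in advance. Apoa5, F12 and F2 were at 0 in all 20 heart controls, where the size of a fitted difference is set by the floor. Of the 3 higher outside the liver, F3 and Serpine2 are described. At 1 common scale, Serpine2 had a median of 1414 CPM in ovary, 383 in lung, 135.1 in heart, 102 in kidney and 12.5 in liver, and of the neighbours in that order only heart and kidney overlapped. F3 was highest in lung (7.97 CPM) and lowest in liver (1.43 CPM).

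Some members had a second tissue. Kng1 had a median of 47.02 CPM in kidney, where 11 of 11 controls held 33.6 to 60.6 CPM, against 5208 CPM in liver and 0 CPM in heart and lung. F5 (58.5 CPM) and Fgg (50.3 CPM) were also higher in kidney than in lung, heart or ovary by median. Vtn had 98.7 CPM in heart, 5.74 in ovary and 4.96 in kidney. The C1q chains stood nearest to liver in heart, with C1qb at 145.05 CPM against 228 CPM.

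**Figure D4:**
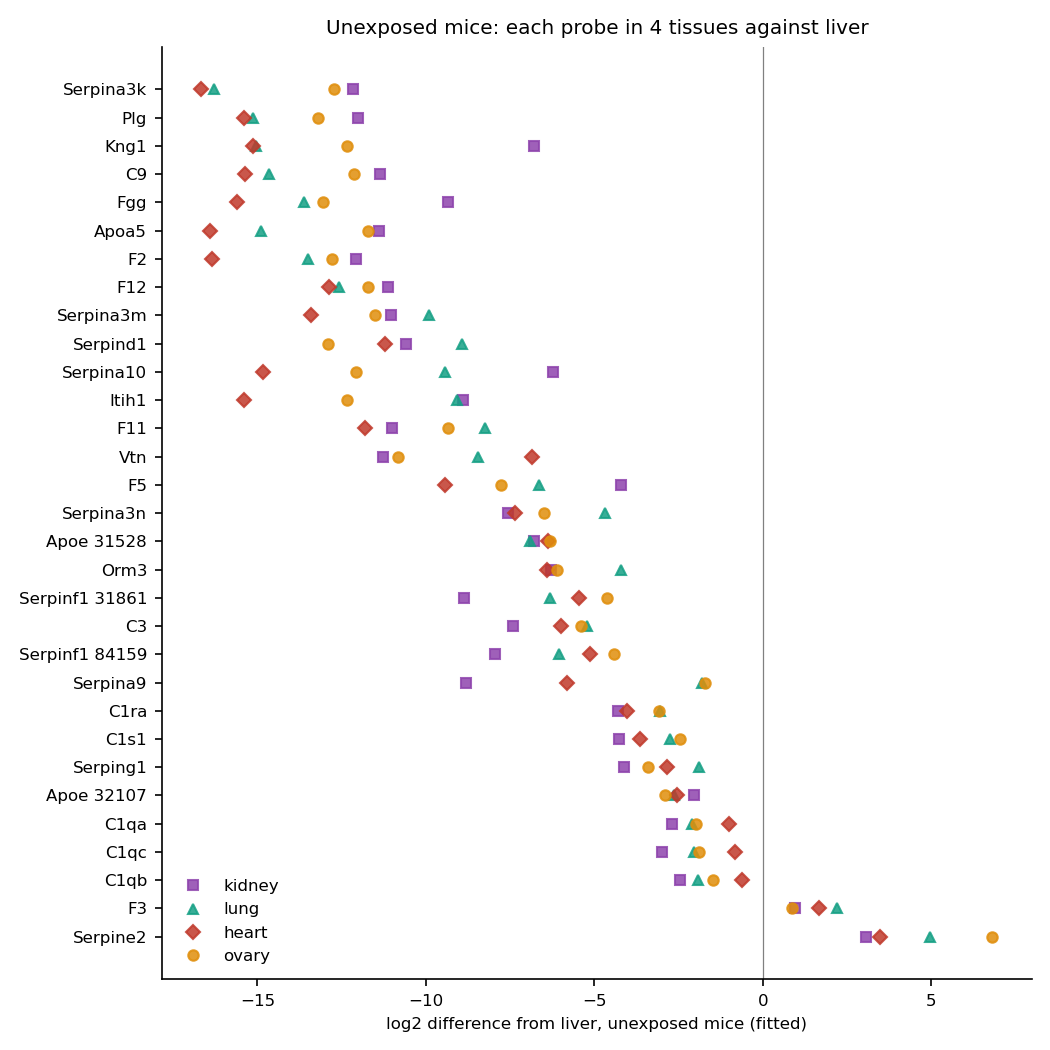
Fitted log2 difference from liver (horizontal axis) of 31 of the 33 probes in kidney, lung, heart and ovary of unexposed mice, sorted by the median difference. The points of F3 and Serpine2 lie right of 0 in every tissue and those of the other probes drawn left of it. Where a probe is at 0 in a tissue, the size of its difference is set by the floor.

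In lung, 5 of 30 members were called at 250 ppm 1,2-DCB, beside 32.6% of all probes. F3, which starts coagulation outside the vessel, measured 5.59 to 11.6 CPM in 10 controls (median 10.7) and 9.59 to 31.4 CPM in 6 animals (median 16.3), with 5 above all controls and a log2 change of 0.83 (0.53 to 1.13, edgeR adjusted p = 1.4e-05). Vtn had 20.5 to 33.5 CPM against 31.6 to 44.1 CPM (-0.47, adjusted p = 0.012). Serpina3n was called higher (0.72), with 55.8, 55.8, 76.2, 76.9, 124.8 and 257 CPM against 47.6 to 85.6 CPM, the last in animal 506R. Apoe_32107 was called lower (-0.42). Without animal 506R, F3 (0.59) and Vtn (-0.41) remained called and Serpina3n (0.24, adjusted p = 0.21) and Apoe_32107 (-0.33, adjusted p = 0.12) did not.

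At 100 ppm, Serping1 was called lower in lung, with 297 to 404 CPM against 366 to 519 CPM (-0.39, adjusted p = 0.0087). In lung 0 members were called by edgeR at 400 ppm 1,4-DCB beside 2.61% of all probes. An unadjusted p under 0.05 was held by 4 members, beside 404 of all 2756 probes, and DESeq2 called 0 members. In the lists at 250 ppm, Il6 was called higher in lung (2.46), as were Lcn2 (0.99) and Procr (1.03).

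In kidney at 250 ppm 1,2-DCB, 2 of 30 members were called, beside 11.7% of all probes. Apoe_31528 held 162 to 297 CPM in 6 animals (median 224) against 115.8 to 148.6 CPM in 5 controls (median 126.7), without overlap, at 0.82 (0.42 to 1.21, edgeR adjusted p = 0.0041). C9 held 1.78 to 4.23 CPM against 0.276 to 1.45 CPM, without overlap, at 1.73 (0.73 to 2.73, adjusted p = 0.018). Without control 7 or control 8, 1 member stayed called. The other 6 members that were at least 1000-fold lower by median than liver in all 4 tissues and at least 10 CPM in liver (Apoa5, F12, F2, Plg, Serpina3k and Serpina3m) summed to 0.946 to 55.1 CPM at 250 ppm and 3.68 to 17.9 CPM in controls. Those sums are parts of the unscaled library total, and the groups overlapped. Of 16 hepatocyte probes, 5 were called higher in kidney there. That list is not particular to liver, as it summed to 66321 to 82274 CPM in the kidney controls of 1,2-DCB. The part of liver RNA in the C9 value was not tested. In kidney 0 members were called by edgeR at 400 ppm 1,4-DCB beside 1.03% of all probes. An unadjusted p under 0.05 was held by 3 members, beside 250 of all 2729 probes, and DESeq2 called 1 member.

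In heart, 10 members were called higher at 150 ppm 1,4-DCB and 0 lower, beside 27.2% of all probes. C3 had 62.6 to 393 CPM (median 185) against 53.2 to 96.0 CPM in 10 controls, a log2 change of 1.32 (0.71 to 1.94, edgeR adjusted p = 0.0020). Serpinf1_31861 had 92.2 to 307 CPM (median 219) against 71.7 to 131.5 CPM (1.09), Serpine2 81.9 to 237 CPM against at most 90.1 CPM (0.74), and Apoe_31528 55.6 to 225 CPM against 67.8 to 106.9 CPM (0.92). For each of these 4 probes, animal 404 was not above the controls and the other 4 animals were above all 10. The others called included Serpinf1_84159, Orm3, Serping1, Apoe_32107 and C1qc.

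In heart at 400 ppm 1,4-DCB 6 members were called, beside 13% of all probes. Serpinf1_31861 (98.1 to 309 CPM, 0.92), Apoe_31528 (88.9 to 214 CPM, 0.79), Serping1 (99.04 to 152.8 CPM against 73.8 to 98.4 CPM, 0.46) and C1ra (8.65 to 21.96 CPM against 5.03 to 11.9 CPM, 0.77) were among those higher. Vtn was lower, with 31.4 to 47.1 CPM against 49.2 to 68.8 CPM, without overlap (-0.60, adjusted p = 0.010).

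The heart libraries differed in fat cell genes, whose list of 4 (Adipoq, Cfd, Car3 and Cidec) was chosen after the data were seen. The sum of the 4, taken on the unscaled library total, was 1.08 to 16.3 CPM in the 10 controls of 1,4-DCB and 3.02 to 321 CPM in those of 1,2-DCB. It was 225, 22.9, 189, 4.67 and 2681 CPM in animals 401 to 405 at 150 ppm, and 371, 12.8, 239, 14.7 and 26.8 CPM in animals 501 to 505 at 400 ppm. On the unscaled total, fibroblast probes summed to 525 to 946 CPM in controls and up to 3437 CPM at 150 ppm. On the scaled total they summed to 575 to 871 CPM in controls and up to 2128 CPM at 150 ppm. Without animal 405, 1 member was called at 150 ppm and 9 at 400 ppm, beside 1.82% and 14.9% of all probes. Without the 5 libraries with Cfd above 80 CPM of the unscaled total, 0 members were called at either concentration, and 0 and 12 of all probes were. That fit left 2 animals at 150 ppm and 3 at 400 ppm. The log2 change of C3 at 150 ppm was then 0.36, that of Serpinf1_31861 0.78 at 150 ppm and 0.42 at 400 ppm, and that of Vtn -0.44 at 400 ppm. Leaving out animal 501 alone gave 0 calls at 400 ppm, and animal 503 alone gave 1.

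**Figure D5:**
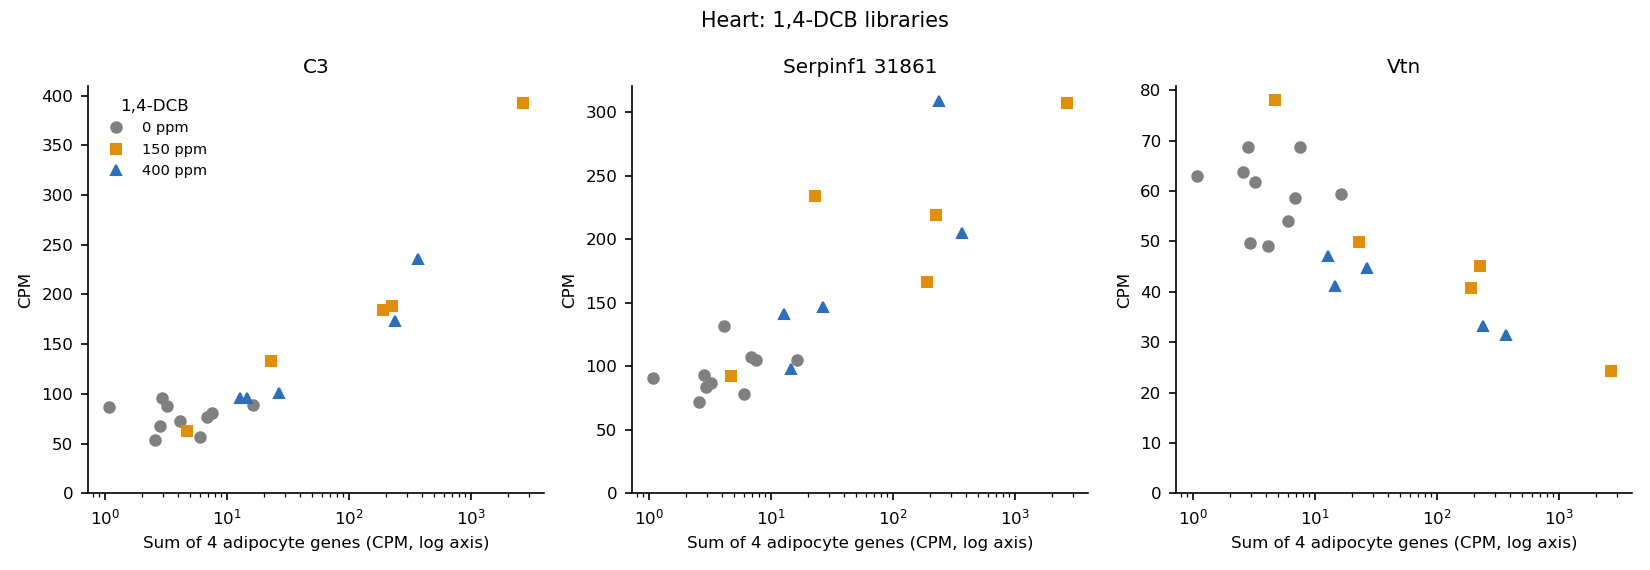
CPM (vertical axis, from 0) of C3, Serpinf1_31861 and Vtn against the sum of 4 adipocyte genes in CPM (log axis) in heart libraries of 1,4-DCB at 0, 150 and 400 ppm. The vertical axis is on the scaled library total and the horizontal axis on the unscaled total. The library with 2681 CPM of adipocyte genes has the highest C3 and the lowest Vtn.

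At 250 ppm 1,2-DCB 2 of 22 heart members were called, beside 8.88% of all probes. C1s1 had 19.7 to 36.9 CPM in 7 animals (median 29.3) against 29.3 to 87.8 CPM in 10 controls (median 45.7), a log2 change of -0.74 (adjusted p = 0.014), with the highest control in animal 4. Fgg was at 0 in all 7 animals and in 4 of 10 controls, whose highest value was 16 deposited counts, so the call rests on a few reads and no fold is given.

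In ovary at 250 ppm 1,2-DCB 3 of 28 members were called, beside 15.9% of all probes. Apoe_31528 had 457 to 709 CPM in 7 animals (median 584) against 310 to 531 CPM in 10 controls (median 381), a log2 change of 0.53 (0.31 to 0.75, edgeR adjusted p = 0.0010), with 5 animals above all controls. Serpine2, which granulosa cells make, had 3437 to 4880 CPM (median 4034) against 2277 to 3790 CPM (median 3045), at 0.45 (adjusted p = 0.0055). Serpina3k had 1.55 to 12.6 CPM against 0.368 to 91.2 CPM and was called lower (-2.26, adjusted p = 0.041), with the highest values, 91.2 CPM and below, in control animals 4, 7 and 9. Without those 3 controls its log2 change was 0.42 (adjusted p = 0.76). In ovary 0 members were called by edgeR at 400 ppm 1,4-DCB beside 0.479% of all probes. An unadjusted p under 0.05 was held by 3 members, beside 241 of all 2713 probes, and DESeq2 called 0 members.

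Below the highest concentration, 11 of 880 member tests in kidney, lung, heart and ovary were called over 32 contrasts, beside 1.43% of all tests, and all but Serping1 in lung at 100 ppm were the 10 in heart at 150 ppm. At the highest concentrations the broad fall of the members was called in the liver. Outside it, 3 members were called lower in lung, 2 in heart and 1 in ovary at 250 ppm 1,2-DCB. At 400 ppm 1,4-DCB 1 was called lower in heart. Some members, such as Apoa5, F12 and F2, lay at or near 0 CPM in the other tissues, where a fall could hardly be called. The difference of the changes between tissues was not tested.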

How the data were processed

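The authors deposited 1 table of counts per probe from the TempO-Seq panel, which they named as attenuation adjusted. For 59 probes, 4 of them members (Vtn, Fgg, Plg and C3), every deposited count was a whole multiple of a factor of 2 to 21. Per the submitters' processing notes, Bowtie 1.3.1 was among the tools, and the genome build is not given in the sources used here. Reads carry no molecular identifiers, so counts are not independent molecules. Of 360 libraries, 326 that the labels mark as used were analysed, from 37 animals of the 1,2-DCB series and 35 of the 1,4-DCB series. The other 34 (21 kidney, 11 liver and 2 lung libraries) entered an alternative only. No copy was found among the 824 within-group pairs of libraries. The labels number animals but do not say how they were housed or exposed together, so p-values measure the spread between these animals.

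Each tissue was fitted once over its 12 groups with edgeR 4.0.16 in R 4.3.3 (TMM scaling, filterByExpr, glmQLFit and glmQLFTest), with Benjamini-Hochberg adjustment over every probe tested in a contrast. Members passing the filter numbered 34 (liver), 30 (kidney), 30 (lung), 22 (heart) and 28 (ovary). Unexposed tissues were compared in 1 fit with the compound series as a term. That fit used no animal block, although tissues of 1 animal pair through the animal number in the labels, and a fit with the animal as a block was an alternative. DESeq2 1.42.0, other scaling, no filter, undone attenuation factors, Dbp as a covariate for time of day, 1 compound at a time and left-out libraries were the other alternatives. The left-out heart, lung and ovary libraries and the fat cell list were chosen after seeing the data. The pipeline was tested on simulated data. Levels in full were given for up to 8 members with the smallest p among those called at each highest liver concentration, and for up to 5 elsewhere. Members, lists and tests were chosen with earlier results of these data known, and some genes that the symbol pattern takes in are not reported here or stand in counts only.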

Additional observations from a re-analysis of the deposited data

Results flagged for a closer look

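Of 83 groups of 4 to 10 animals, 15 held a library whose gap to the nearest other was large for the group's range. The cutoff nominally flags about 1 in 20 groups of normal values, a rate not measured in these data. Members share animals, so these groups are not independent. Control animal 4 of 1,2-DCB gave 4 of them in liver, with 342 CPM of C1qb (next 130), 288 of C1qa (next 121), 191 of C1qc (next 79.0) and 36775 of Fgg (next 25728), and 1 in heart, with 87.8 CPM of C1s1. Animal 506R at 250 ppm gave 3, with 298 CPM of Itih1 in liver, and 31.4 of F3 and 257 of Serpina3n in lung.

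The others in liver were C1qb of animal 201 at 10 ppm (66.2 CPM), C1qc of animal 304 at 30 ppm (36.5 CPM), Itih1 of animal 404 at 100 ppm 1,2-DCB (530 CPM), Vtn of control animal 2 of 1,4-DCB (6039 CPM), and at 400 ppm Vtn of animal 501 (3821 CPM) and F11 of animal 504 (69.4 CPM). In ovary, Serpina3k of animal 508 at 250 ppm stood at 12.6 CPM.

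For some probes every exposed animal lay on one side of the control mean in liver and on the other side elsewhere, and the difference between tissues was not tested. At 250 ppm 1,2-DCB, Apoe_31528 changed by -0.63 in liver, 0.82 in kidney and 0.53 in ovary, and C9 by -0.998 in liver and 1.73 in kidney. At 400 ppm 1,4-DCB, Apoe_31528 changed by -0.36 in liver and 0.79 in heart, and Serping1 by -0.66 and 0.46.

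Some libraries that the labels mark as not used stood above the used controls of their tissue in genes of the liver. The CPM given for this are parts of the unscaled library total. The 7 members that are nearly restricted to liver (Apoa5, C9, F12, F2, Plg, Serpina3k and Serpina3m, by median) summed to 16725 CPM in the kidney library of animal 302 (30 ppm), 1571 CPM in that of animal 105 (1 ppm) and 86.7 CPM in that of animal 401 (100 ppm), all of 1,2-DCB, against at most 68.1 CPM in used kidney controls and 76.0 CPM in any used kidney library. The median was 14.5 CPM over the unused kidney libraries and 17.8 CPM over the used ones. The lung library of animal 505 at 250 ppm had 577 CPM, against at most 6.12 CPM in lung controls. The libraries of animals 105 and 505 held 310709 and 535234 counts and are marked for a low alignment rate. Where these transcripts came from was not tested.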

How the results depend on the processing

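Of 94 calls of single members, 94 were kept with DESeq2 and 94 with median-of-ratios scaling, 93 with no filter, 92 of 93 with the attenuation factors undone, 84 of 94 with Dbp as a covariate, 84 of 93 with animals of the same compound only and 53 of 94 with all libraries. Leaving out 1 library kept 866 of 932. In lung, heart and ovary only the 5 animals at 400 ppm 1,4-DCB were left out in turn, so that count does not cover the other calls there. With the animal as a replicate block, the tissues of 1 animal being paired, 33 members were called against liver in each tissue, 3 higher and 30 lower. In all, 2228 (kidney), 2519 (lung), 2410 (heart) and 2560 (ovary) probes were called. The block changed no call of a member. For probes with counts in liver alone that outcome was fixed in advance, so it is no test of them. No replicate block was possible within a tissue because animal numbers of exposed groups and controls do not pair.

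Counts of members called moved as follows. Shares over all probes under these alternatives are given for some only, so the moves cannot be read as particular to the members. With all libraries, liver 1,2-DCB had 3 at 1 ppm, 0 at 10 ppm, 1 at 100 ppm and 13 at 250 ppm, liver 1,4-DCB 0 at 150 ppm and 9 at 400 ppm, the 4 tissues below the highest concentration 39, and the isomer differences 2. DESeq2 gave 2 and 7 in liver at 10 and 30 ppm 1,2-DCB, 2 at 150 ppm 1,4-DCB, 1 in kidney at 400 ppm, 21 below the highest concentration and 1 isomer difference. With animals of the same compound only there were 0 and 2 in liver at 10 ppm 1,2-DCB and 150 ppm 1,4-DCB, 2 in lung at 400 ppm, 4 in kidney at 250 ppm and 10 in heart at 400 ppm. With Dbp these were 0, 2, 1, 6 and 12, with 19 below the highest concentration and 2 isomer differences. With attenuation undone, liver 150 ppm had 2 and heart 250 ppm had 1. Without lung animal 506R, lung had 3 at 250 ppm and 1 at 400 ppm. Heart 1,4-DCB had 1 at 150 ppm and 9 at 400 ppm without animal 405, beside 1.82% and 14.9% of all probes. It had 0 and 0 without the 5 libraries rich in fat cell genes, beside 0% and 0.475%. Ovary Serpina3k reversed to 0.42 without controls 4, 7 and 9.

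Leaving out 1 library at a time gave 0 to 0, 0 to 2, 3 to 6, 4 to 14 and 23 to 26 in liver at the rising concentrations of 1,2-DCB, 0 to 0 at 1, 10 and 50 ppm, 0 to 1 at 150 ppm and 22 to 25 at 400 ppm of 1,4-DCB, 1 to 2 and 0 to 0 in kidney at 250 and 400 ppm, 0 to 12 in heart, 0 to 1 in lung and 0 to 0 in ovary at 400 ppm. Liver Orm3 at 150 ppm was lost without control 4, animal 402 or animal 405. The cause of these moves was not tested. Groups of 2 to 6 exposed animals in liver and kidney limit small changes, and members under 3 CPM rest on few counts.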

Other observations

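The control animal of 1,2-DCB with the highest C1q in liver, animal 4, was also the highest of the 10 controls in heart, with 174 CPM of C1qa (next 80.9), 279 of C1qb (next 121) and 112.5 of C1qc (next 62.1), and in ovary, with 282 CPM of C1qa (next 169), 499 of C1qb (next 280) and 205 of C1qc (next 111.6). In lung the highest control was animal 9, with 174, 272 and 118.8 CPM of C1qa, C1qb and C1qc, and animal 4 was next with 88.7, 129.5 and 54.8 CPM. The animal's kidney library was not among those used. The pattern was noticed in these data and was not tested.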
